A study of Homo sapiens with 13 samples.

Results

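RNA sequencing of LNCaP-abl cells after knockdown of FOXA1 was set directly against the same cells after knockdown of FOXM1, without passing through the control library. The comparison rests on 2 of the 13 libraries of the series, 1 labelled siFOXA1 and 1 labelled siFOXM1. LNCaP-abl cells derive from the prostate cancer line LNCaP, grow without androgen and were kept here in medium with charcoal-stripped serum, which is depleted of steroid hormones. In the siFOXA1 group the cells received a pool of siRNAs against FOXA1, in the siFOXM1 group a pool against FOXM1, in 10 further groups a pool against another factor, and in the control group a control siRNA. All groups were transfected with a lipid reagent and harvested after 72 h. The other 10 targets were BRCA1, BRCA2, CTCF, EED, EZH2, KDM1A, MALAT1, PCAT1, RAD21 and SMARCA4. Each group had 1 library, so no difference below has a replicate error, none was tested, and every value describes these libraries. Each target had a single siRNA pool, which is a limit of the model.

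FOXA1 is a pioneer factor that opens chromatin at enhancers of luminal epithelial cells and so lets other transcription factors reach their binding sites. FOXM1 is a forkhead factor of dividing cells, which works with the MuvB complex at promoters of genes needed for mitosis. Type I and type III interferons signal through the kinases JAK1 and TYK2 to a complex that holds STAT2 and IRF9, which binds interferon-stimulated response elements in the promoters of antiviral genes.

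Expression is given in FPKM, a count of sequenced fragments scaled to transcript length and to all fragments mapped, recovered from the deposited log2 values. A difference is log2(FPKM + 1) in siFOXA1 minus the same in siFOXM1, so a positive value means higher in siFOXA1. This scale understates the difference of genes with low FPKM. Of 22613 entries in each file, 15786 genes had a mean of at least 0.5 FPKM over the 13 libraries and were compared, after 761 small RNA entries were left out. Read depth is unknown. For each gene named, the lowest, median and highest level in the other 10 knockdown libraries and the level in the siControl library serve as a frame.

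FOXA1 was at 60.6 FPKM in siFOXA1 and 119.6 in siFOXM1, with 91.2, 137 and 175 FPKM as the lowest, median and highest of the other 10 knockdowns and 137 in siControl. It was lowest in siFOXA1 of the 13 libraries, and the difference was -0.97. FOXM1 was at 1.75 FPKM in siFOXA1 and 0.474 in siFOXM1, with 2.47, 8.44 and 15.6 in the other 10 knockdowns and 20.1 in siControl. The FOXM1 transcript was thus at its lowest in siFOXM1 and at its second lowest in siFOXA1, with a difference of 0.90. The siFOXA1 library is therefore low in both transcripts, and the siFOXM1 library in FOXM1 but not in FOXA1. Of the other factors targeted in the series, BRCA1 was at 1.31 FPKM in siFOXA1 and 1.36 in siFOXM1, against 11.1 in siControl, and BRCA2 at 0.288 in siFOXA1 and 0.330 in siFOXM1, against 3.25 in siControl. For each of these DNA repair genes, the siFOXA1 and siFOXM1 libraries were the lowest pair of the 13.

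The cells kept luminal epithelial transcripts in both libraries. The luminal keratin KRT8 was at 223 FPKM in siFOXA1, 201 in siFOXM1 and 127 in siControl, and the prostate homeobox factor HOXB13 was at 133 FPKM in siFOXA1, 132 in siFOXM1 and 121 in siControl. The secreted kallikreins were nearly absent, with KLK3 (prostate-specific antigen) at 0.133 FPKM in siFOXA1, 0.257 in siFOXM1 and at most 0.524 in the other 10 knockdowns. Few markers of other cell types passed the filter on low values, 2 for basal epithelium, 3 for fibroblasts and smooth muscle, 4 for leukocytes and 2 for endothelium, and 0 of these 11 lay 2-fold apart. With 5.59% of all genes 2-fold apart, a count of 0 in 11 is near that share and says little about these markers. The basal keratin KRT14, which did not pass the filter, was at 0.830 FPKM in siFOXA1 and 0.128 in siFOXM1, against at most 0.0316 in the other 10 knockdowns and 0.00459 in siControl.

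Between the 2 libraries, 405 genes were at least 2-fold higher in siFOXA1, which is 2.57% of the genes compared, and 478 were at least 2-fold lower, which is 3.03%. The median difference over all 15786 genes was 0.01, and 12054 genes, or 76.4%, differed by less than 0.5. At least 4-fold differences were found for 38 genes higher in siFOXA1 and 44 lower. Of the 883 genes past 2-fold, 175 had only an assembly or Ensembl identifier in the files. With a smaller pseudocount of 0.1, which gives more weight to low values, 764 genes were higher and 905 lower.

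The 883 genes place this pair at rank 13 among the 66 pairs of knockdown libraries. Pairs that held neither library had 145 to 755 genes 2-fold apart, with a median of 459. siFOXA1 differed from the other 10 knockdowns by 812 to 1405 genes and siFOXM1 by 523 to 1086. The 2 forkhead libraries were thus farther apart than any of the 45 pairs made from the other 10 knockdowns, yet siFOXA1 was nearer to siFOXM1 than to 9 of those 10, the exception being siSMARCA4 at 812. The reverse did not hold. siFOXM1 was nearer to each of the other knockdowns than to siFOXA1, except siBRCA1 (1086 genes), siEED (1049) and siBRCA2 (936).

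**Figure D1:**
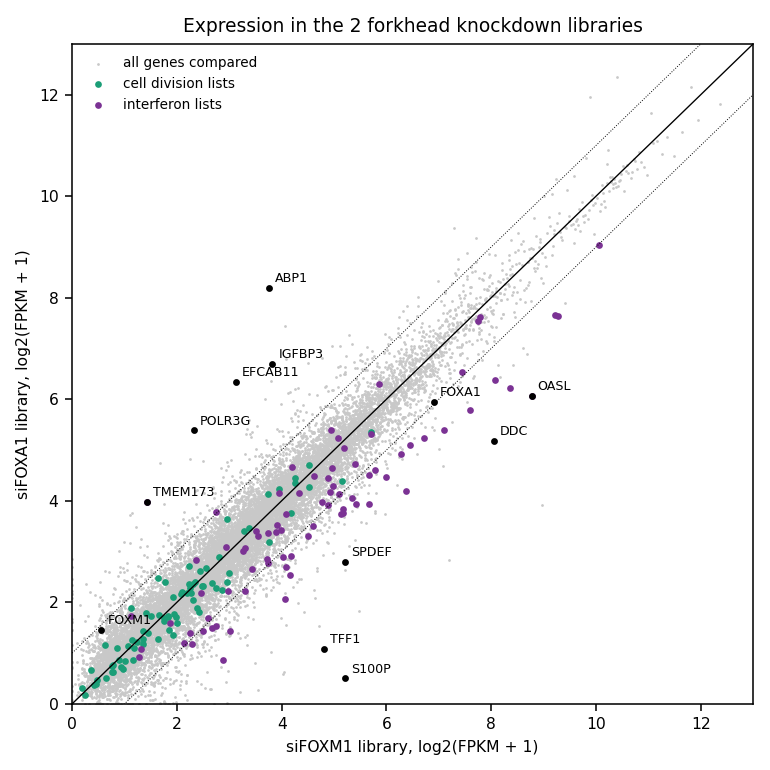
Levels of the 15786 genes compared, as log2(FPKM + 1), in the siFOXA1 library (vertical axis) and the siFOXM1 library (horizontal axis). The solid line marks equal levels and the dotted lines 2-fold differences. Genes of the cell division lists lie between the dotted lines, 35 of the 80 genes of the interferon lists lie at or below the lower one, and labelled genes show the targets and some of the largest differences.

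For each gene past 2-fold, the median of the other 10 knockdowns shows which of the 2 libraries stood off, meaning that it lay at least 1 log2 unit from that median. siFOXA1 alone stood off for 322 of the 883 genes (36.5%), siFOXM1 alone for 159 (18.0%), both on the same side for 36 (4.08%), and both on opposite sides for 8 (0.906%). For the remaining 358 genes (40.5%) neither did, each library lying less than 1 unit from the median.

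The genes of cell division did not separate the 2 knockdowns. Of 30 mitotic genes of the FOXM1 and DREAM programme, 0 were 2-fold higher and 0 were 2-fold lower, the median difference was -0.11, and 28 differed by less than 0.5. Summed over the 30 genes, the level was 104 FPKM in siFOXA1 and 105 in siFOXM1, with 122 to 821 in the other 10 knockdowns and 1002 in siControl. Both sums thus lay below every other library. The FOXM1 transcript was itself at 1.75 FPKM in siFOXA1, as given above, and its part in these levels was not tested. The RNA is from bulk cultures, so fewer cells in a phase of the cycle and less RNA per cell cannot be told apart.

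The largest differences within the mitotic genes ran both ways. CCNB1, the cyclin partner of CDK1 at mitotic entry, was at 11.4 FPKM in siFOXA1 and 6.79 in siFOXM1 (12.2, 31.8 and 76.2 as the lowest, median and highest of the other 10 knockdowns and 73.3 in siControl), a difference of 0.67. CCNA2, cyclin A2, was at 2.47 FPKM in siFOXA1 and 1.67 in siFOXM1 against 24.4 in siControl (0.37). Both cyclins were lowest in siFOXM1 and the second lowest in siFOXA1. The other way, ECT2, an exchange factor of cytokinesis, was at 4.28 FPKM in siFOXA1 and 6.81 in siFOXM1 (-0.56), HMMR, a spindle-associated protein, at 2.00 in siFOXA1 and 3.03 in siFOXM1 (-0.43), BUB1B, a spindle checkpoint kinase, at 1.75 in siFOXA1 and 2.62 in siFOXM1 (-0.40), and TOP2A, the topoisomerase of mitotic chromosomes, at 1.44 in siFOXA1 and 2.11 in siFOXM1 (-0.35). In siControl these were at 34.9, 38.3, 27.7 and 32.9 FPKM. Each of these 4 was lowest of the 13 libraries in siFOXA1.

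Genes of DNA replication and repair were as close. Among 28 genes of the G1/S transition and replication, 0 were 2-fold apart and the median was -0.07, and among 20 genes of homologous recombination and the Fanconi pathway, 0 were 2-fold apart with a median of 0.02. The widest members of the first list were the D-type cyclin CCND1, at 20.0 FPKM in siFOXA1, 34.6 in siFOXM1 and 47.6 in siControl (-0.77), and the replication factor GINS2, at 2.68 in siFOXA1, 1.17 in siFOXM1 and 19.8 in siControl (0.76). In the second list RAD54B, a DNA translocase of homologous recombination, differed most, at 4.6 FPKM in siFOXA1, 2.13 in siFOXM1 and 7.71 in siControl (0.84). The cyclins CCNE2 (3.74 FPKM in siFOXA1 and 6.26 in siFOXM1, -0.62) and CCNE1 (1.57 FPKM in siFOXA1 and 2.82 in siFOXM1, -0.57) were lower in siFOXA1, and the replicative helicase subunit MCM5 (4.26 FPKM in siFOXA1 and 2.41 in siFOXM1, 0.63) was lower in siFOXM1. Of the 7 inhibitors of cyclin-dependent kinases, 0 were 2-fold apart, and CDKN1A, which encodes p21, was at 82.6 FPKM in siFOXA1, 77.6 in siFOXM1 and 22.5 in siControl. Taking the 3 cell division lists as 1, 0 of 78 genes were 2-fold apart, beside 5.59% of all genes. This count holds for log2(FPKM + 1), which understates differences at low FPKM. Without the added 1, the levels of some members, such as GINS2 and RAD54B above, were more than 2-fold apart. The closeness of members with low FPKM is therefore less certain.

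Interferon genes separated the 2 libraries. Of 80 genes in 6 interferon lists, 35 were at least 2-fold lower in siFOXA1 (43.8%, beside 3.03% of all genes) and 2 were higher, with a median of -0.90 beside 0.01 over all genes. A lower level in siFOXA1 by any amount was found for 70 of the 80, beside 49.2% of all genes. siFOXM1 was the highest of the 13 libraries for 66 of them, beside 10.4% of all genes, and for 53 of the 80 siFOXA1 came directly after it. The filter on low values bears on these counts, since 10 of the 80 passed it only through siFOXA1 or siFOXM1, and 7 of these are among the 35. With the filter set on the other 11 libraries, 28 of 70 genes were 2-fold lower (40.0%, beside 2.93% of all genes) and 2 were higher (beside 2.44%), the median was -0.80, and siFOXM1 was the highest for 56 (beside 10.2% of all genes). The summed level of the 80 genes was 2657 FPKM in siFOXA1 and 5881 in siFOXM1, with 919.9 to 1360.4 in the other 10 knockdowns and 1028 in siControl. Both libraries thus stood above all others in this sum, and siFOXM1 above siFOXA1. Of the 37 genes past 2-fold, both libraries stood off on the same side for 20, siFOXM1 alone for 15, siFOXA1 alone for 1 and neither for 1. The 20 include OAS2, IFNL1, IFNL3, CXCL10 and TNFSF10, and the 15 include UBE2L6 and RTP4. These 7 passed the filter only through siFOXA1 or siFOXM1, so the split is a description and nothing is read from it.

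The antiviral IFIT, OAS and MX families had the lowest median of the 6 interferon lists. Of 9 genes, 7 were 2-fold lower in siFOXA1 (beside 3.03% of all genes) and the median was -1.39. Without OAS2, which passed the filter only through siFOXA1 or siFOXM1, the count was 6 of 8 and the median -1.44. OASL, an oligoadenylate synthetase-like protein that aids RNA sensing, was at 65.6 FPKM in siFOXA1 and 437 in siFOXM1, with 1.81, 5.07 and 19.8 as the lowest, median and highest of the other 10 knockdowns and 0.831 in siControl, a difference of -2.72. IFIT2, which binds viral RNA and limits its translation, was at 73.8 FPKM in siFOXA1 and 327 in siFOXM1 (other knockdowns 2.78, 6.10 and 18.7; 2.22 in siControl; -2.13). IFIT3, its partner, was at 54.3 FPKM in siFOXA1 and 192 in siFOXM1 (other knockdowns 1.75, 3.82 and 9.23; 1.75 in siControl; -1.80). For these genes siFOXA1 lay between siFOXM1 and all other libraries. IFIT1, which recognises RNA caps that lack methylation, was at 82.1 FPKM in siFOXA1, 269 in siFOXM1 and 2.10 in siControl (-1.70). The synthetases OAS2 (5.44 FPKM in siFOXA1 and 15.9 in siFOXM1, 0.152 in siControl, -1.39) and OAS1 (23.4 FPKM in siFOXA1 and 54.0 in siFOXM1, 1.28 in siControl, -1.17) had the same order. MX1, a dynamin-like antiviral GTPase, did not: it was at 1.11 FPKM in siFOXA1, 1.5 in siFOXM1 and 1.15 in siControl, within the range of the other 10 knockdowns (0.605 to 1.53).

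Among 31 further interferon-stimulated effectors, 16 were 2-fold lower in siFOXA1 (beside 3.03% of all genes) and 0 higher (beside 2.57%), with a median of -1.09. Of these, UBE2L6, TRIM22 and RTP4 passed the filter only through siFOXA1 or siFOXM1. Of the 28 that passed without these libraries, 14 were 2-fold lower, the median was -1.03 and siFOXM1 was the highest of the 13 libraries for 28. EPSTI1, which did not pass the filter, was at 0.362 FPKM in siFOXA1 and 0.207 in siFOXM1. RTP4 was at 0.816 FPKM in siFOXA1 and 6.37 in siFOXM1, against at most 0.201 in the other 10 knockdowns and 0.0101 in siControl (-2.02). ISG20, an exonuclease that degrades viral RNA, was at 14.3 FPKM in siFOXA1 and 49.6 in siFOXM1 (other knockdowns 9.07, 10.4 and 17.8; 7.83 in siControl; -1.73), so that siFOXA1 lay within the other knockdowns and siFOXM1 far above them. RARRES3 was at 41.3 FPKM in siFOXA1 and 135 in siFOXM1 (0.927 in siControl, -1.69). IFI6, a mitochondrial and endoplasmic reticulum protein, was at 197 FPKM in siFOXA1 and 622 in siFOXM1 (5.65 in siControl, -1.65), and IFI44 at 4.78 in siFOXA1 and 16.9 in siFOXM1 (0.200 in siControl, -1.63). The ubiquitin-like modifier ISG15 was at 201 FPKM in siFOXA1 and 595 in siFOXM1 (other knockdowns 15.6, 27.3 and 96.7; 14.6 in siControl; -1.56). At the other end of the list, the scramblase PLSCR1 was at 9.58 FPKM in siFOXA1 and 10.3 in siFOXM1, both above the 4.74 of the highest other knockdown, with a difference of -0.10, and the nuclear body protein SP100 was at 21.6 in siFOXA1 and 23.5 in siFOXM1 (-0.12). PLSCR1, SP100 and MX1 were picked after their values were seen.

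Levels of 7 interferon and chemokine genes were compared. Of these, 6 (IFNL1, IFNL2, IFNL3, CXCL10, CXCL11 and TNFSF10) passed the filter only through siFOXA1 or siFOXM1, so their values are given as a description and no count is read from the list. The type III interferon IFNL1 was at 3.20 FPKM in siFOXA1 and 15.7 in siFOXM1, against at most 0.408 in the other 10 knockdowns and 0.0145 in siControl (-1.99). IFNL3 was at 1.69 FPKM in siFOXA1 and 4.66 in siFOXM1 (-1.08) and IFNL2 at 2.22 in siFOXA1 and 5.03 in siFOXM1 (-0.91). These genes are near-identical copies, so their reads may be split uncertainly. The type I interferon IFNB1 did not pass the filter on low values over the 13 libraries. It was at 0.690 FPKM in siFOXA1 and 4.93 in siFOXM1, against at most 0.295 in the other 10 knockdowns and 0.0870 in siControl. The chemokines CXCL10 (21.2 FPKM in siFOXA1 and 62.5 in siFOXM1, -1.52) and CCL5 (13.2 FPKM in siFOXA1 and 35.2 in siFOXM1, -1.35) followed, while CXCL11 differed by -0.69 (18.7 FPKM in siFOXA1 and 30.7 in siFOXM1). TNFSF10, the death ligand TRAIL, was at 1.83 FPKM in siFOXA1 and 5.4 in siFOXM1 (0.50 in siControl, -1.18). CXCL10 was listed at 0 in siControl, CCL5 was at 5.27 FPKM and CXCL11 at 0.0491.

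Sensors and signalling genes were mixed. Among 9 sensors and adaptors, 3 were 2-fold lower in siFOXA1 (DHX58, EIF2AK2 and IFIH1, beside 3.03% of all genes) and 1 was higher (beside 2.57%). The higher gene was TMEM173, which encodes the DNA-sensing adaptor STING, at 14.8 FPKM in siFOXA1 and 1.70 in siFOXM1, with 0.731, 1.41 and 2.83 in the other 10 knockdowns and 1.51 in siControl (2.55). siFOXA1 alone stood off for it. IFIH1, the RNA sensor MDA5, was at 10.3 FPKM in siFOXA1 and 23.2 in siFOXM1 (3.12 in siControl, -1.10), DHX58 (LGP2) at 1.89 in siFOXA1 and 5.68 in siFOXM1 (0.542 in siControl, -1.21) and DDX58 (RIG-I) at 14.1 in siFOXA1 and 28.4 in siFOXM1 (2.43 in siControl, -0.96). The RNA-activated kinase EIF2AK2 was at 8.89 FPKM in siFOXA1, the lowest of the 13 libraries, and at 21.7 in siFOXM1, the highest, with 11.7 in siControl (-1.20).

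Among 17 genes of the interferon receptors, STATs and IRFs, 2 were 2-fold lower in siFOXA1 (beside 3.03% of all genes) and 1 was higher (beside 2.57%), with a median of -0.23. IRF9, the DNA-binding subunit of the complex with STAT2, was at 17.3 FPKM in siFOXA1 and 81.7 in siFOXM1, with 5.02, 6.55 and 7.40 in the other 10 knockdowns and 4.28 in siControl (-2.18). STAT2 was at 24.2 FPKM in siFOXA1 and 30.1 in siFOXM1 (14.9 in siControl, -0.30), so that it did not pass 2-fold as IRF9 did. The higher gene was IFNAR1, a chain of the type I receptor, at 12.7 FPKM in siFOXA1 and 5.74 in siFOXM1, with 9.80, 12.5 and 14.4 in the other 10 knockdowns and 12.3 in siControl (1.02). siFOXM1 was the lowest of the 13 libraries for it, while siFOXA1 was near the median. The other type I chain, IFNAR2, was at 7.09 FPKM in siFOXA1 and 8.56 in siFOXM1 (-0.24). Of 17 genes listed for MHC class I and peptide loading, 7 had an entry and were compared, with no class I heavy chain gene among them. Of these 7, the transactivator NLRC5 (1.70 FPKM in siFOXA1 and 7.03 in siFOXM1, 0.912 in siControl, -1.57) and the light chain B2M (527 FPKM in siFOXA1 and 1057 in siFOXM1, 305 in siControl, -1.0) were 2-fold lower in siFOXA1 (28.6%, beside 3.03% of all genes). STAT2 and IFNAR2 were picked after their values were seen.

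**Figure D2:**
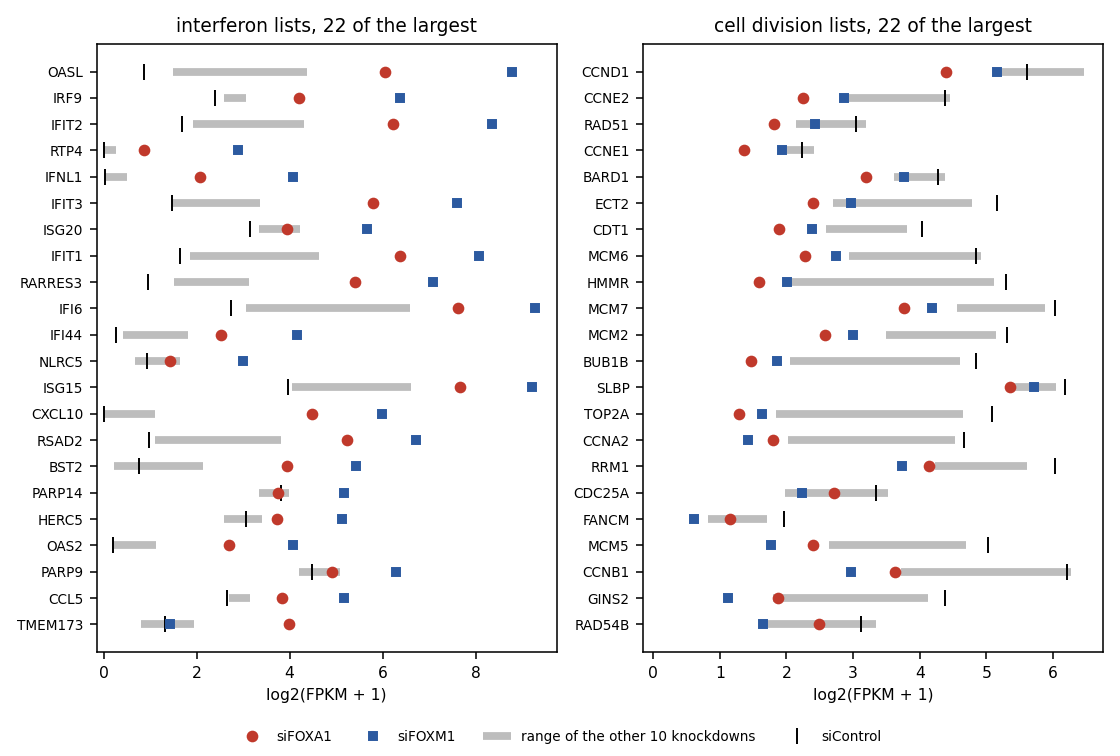
Levels as log2(FPKM + 1) of 22 of the genes with the largest differences in the interferon lists (left) and in the cell division lists (right). Red circles are siFOXA1, blue squares siFOXM1, grey bars the range of the other 10 knockdowns and black ticks siControl. On the left siFOXM1 lies right of siFOXA1 for all genes shown except TMEM173, and on the right the 2 libraries lie close together at the low end of the range.

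Promoter windows of RefSeq (GRCh38.p14, 250 bases before to 50 after a start, the first window listed for each gene) were searched on both strands for the core of an interferon-stimulated response element, spelled here as GAAA, any 2 bases and GAAA. Of the 80 interferon genes, 61 had a window and 35 of these held the core (57.4%), beside 3.65% of all 27305 windows and 2.66% of the 10306 genes compared that had one. Among genes 2-fold lower in siFOXA1 it was in 29 of 298 windows (9.73%), and among genes 2-fold higher in 2 of 247 (0.81%). Within the interferon lists, 19 of 27 windows of genes 2-fold lower in siFOXA1 held it (70.4%), and 16 of 34 of the other members (47.1%). The filter on low values bears on these shares too. IFNL1, IFNL3, CXCL10, TNFSF10 and RTP4 among the lower genes with the core, and IFNL2 among the other members with it, passed only through siFOXA1 or siFOXM1. No difference between lower and other genes is therefore read from these shares. A match is a description of the letters and not a binding site. The windows of IFIT1 (plus strand, chr10:89392373-89392672), ISG15 (plus strand, chr1:1013247-1013546) and RTP4 (plus strand, chr3:187368135-187368434) are shown because these 3 genes span high and low levels and were all 2-fold lower in siFOXA1. Capitals mark the core, which in IFIT1 lies on the opposite strand and in ISG15 is formed by a pair of overlapping matches.
IFIT1: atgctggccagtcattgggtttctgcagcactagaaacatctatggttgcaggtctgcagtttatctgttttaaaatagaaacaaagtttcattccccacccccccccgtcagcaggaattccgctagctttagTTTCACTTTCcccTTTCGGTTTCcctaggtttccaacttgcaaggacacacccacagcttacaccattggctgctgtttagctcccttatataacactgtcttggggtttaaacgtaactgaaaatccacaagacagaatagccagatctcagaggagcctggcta
ISG15: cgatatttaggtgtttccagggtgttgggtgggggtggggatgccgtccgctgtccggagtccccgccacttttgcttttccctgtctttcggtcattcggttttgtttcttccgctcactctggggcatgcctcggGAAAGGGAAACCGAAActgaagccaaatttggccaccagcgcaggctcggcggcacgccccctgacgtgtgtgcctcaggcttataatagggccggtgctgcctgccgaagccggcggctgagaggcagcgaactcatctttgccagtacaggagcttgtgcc
RTP4: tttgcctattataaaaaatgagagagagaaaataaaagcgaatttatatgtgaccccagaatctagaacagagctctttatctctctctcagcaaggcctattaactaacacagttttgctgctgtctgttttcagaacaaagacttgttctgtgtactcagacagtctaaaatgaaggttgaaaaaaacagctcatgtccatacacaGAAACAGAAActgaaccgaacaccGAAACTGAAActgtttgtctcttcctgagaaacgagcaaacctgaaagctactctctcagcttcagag

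The mitotic genes carry other letters. TTTGAA, the cell cycle homology region bound by the MuvB complex, was in 15 of the 25 mitotic genes with a window (60.0%), beside 15.4% of all windows and 9.61% of the genes compared, and in 31 of 247 windows (12.6%) of genes higher in siFOXA1 and 25 of 298 (8.39%) of genes lower. The window of CDC20, the activator of the anaphase-promoting complex (plus strand, chr1:43358731-43359030), is shown as a mitotic gene whose level was alike in the 2 libraries, at 4.0 FPKM in siFOXA1 and 4.54 in siFOXM1 against 64.5 in siControl, and capitals mark its matches on either strand.
CDC20: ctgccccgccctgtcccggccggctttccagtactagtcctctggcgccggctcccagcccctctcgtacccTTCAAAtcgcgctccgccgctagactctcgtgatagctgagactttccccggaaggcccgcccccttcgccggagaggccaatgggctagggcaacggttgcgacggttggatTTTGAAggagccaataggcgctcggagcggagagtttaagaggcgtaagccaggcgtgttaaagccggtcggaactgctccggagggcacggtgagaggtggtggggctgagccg

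The forkhead core TGTTTNC was in 30 of 247 windows of genes 2-fold higher in siFOXA1 (12.1%), in 54 of 298 of genes 2-fold lower (18.1%), in 12.7% of the windows of all genes compared and in 18.1% of all 27305 windows. Matches of this motif and of TTTGAA can overlap.

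Outside the interferon lists, several of the genes with the largest differences stood off in siFOXM1 alone, where they were high. S100P, a calcium-binding protein of epithelial tumours, was at 0.415 FPKM in siFOXA1 and 36.1 in siFOXM1, with 0.468, 1.30 and 2.08 in the other 10 knockdowns and 1.40 in siControl (-4.71). MSMB, the microseminoprotein that prostate epithelium secretes, was at 0.536 FPKM in siFOXA1 and 15.5 in siFOXM1 (other knockdowns 0.675, 1.70 and 4.79; 1.60 in siControl; -3.42). REG4, a secreted lectin, was at 0.356 FPKM in siFOXA1 and 6.63 in siFOXM1 (other knockdowns 0.232, 1.10 and 2.51; 1.47 in siControl; -2.49). For these 3, siFOXM1 lay above all other libraries, and siFOXA1 was low as well, the lowest of the 13 libraries for S100P and MSMB and the second lowest for REG4. PROCR, the receptor of activated protein C, was likewise highest in siFOXM1, at 3.26 FPKM in siFOXA1 and 23.7 in siFOXM1 (other knockdowns 2.21, 6.46 and 9.78; 6.03 in siControl; -2.53).

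Others were low in siFOXA1 alone. DDC, which makes dopamine and serotonin from their amino acid precursors, was at 35.1 FPKM in siFOXA1 and 264 in siFOXM1 (other knockdowns 122, 239 and 447; 263 in siControl; -2.88). LRRC31 was at 0.172 FPKM in siFOXA1 and 8.27 in siFOXM1 (other knockdowns 3.71, 6.28 and 8.18; 4.73 in siControl; -2.98). STARD4, a carrier of cholesterol between membranes, was at 2.49 FPKM in siFOXA1 and 20.4 in siFOXM1 (other knockdowns 5.82, 12 and 24.9; 13.5 in siControl; -2.61), and PMP22, a myelin protein also made by epithelia, at 5.25 in siFOXA1 and 35.8 in siFOXM1 (other knockdowns 13.1, 32.4 and 65.1; 42.8 in siControl; -2.56). In each of these 4 genes siFOXA1 was below the other 12 libraries and siFOXM1 close to their range. TGM3, a transglutaminase of differentiating epithelium, was at 1.88 FPKM in siFOXA1 and 25.1 in siFOXM1 (other knockdowns 3.28, 12.3 and 29.1; 5.69 in siControl; -3.18), and siFOXA1 was again the lowest of the 13 libraries.

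Another set stood off on opposite sides. Among the 8 such genes, TFF1, a secreted trefoil peptide of mucosa, was at 1.11 FPKM in siFOXA1 and 27.1 in siFOXM1 (other knockdowns 3.30, 13.9 and 29.6; 6.88 in siControl; -3.73). VSTM2L was at 0.512 FPKM in siFOXA1 and 15.3 in siFOXM1 (other knockdowns 0.576, 2.77 and 5.37; 2.09 in siControl; -3.43). SLC5A1, the sodium-glucose cotransporter SGLT1, was at 1.04 FPKM in siFOXA1 and 13 in siFOXM1 (other knockdowns 0.885, 3.42 and 5.74; 1.63 in siControl; -2.78). The same sign was found for SMIM31 and an assembly entry without a symbol, and the reverse for IGFBP3, NUP54 and INO80B-WBP1. IGFBP3, which binds insulin-like growth factors, was at 103 FPKM in siFOXA1 and 13.2 in siFOXM1 (other knockdowns 9.87, 47.6 and 103; 54.5 in siControl; 2.87), so siFOXA1 was level with the highest of the other libraries and siFOXM1 was the second lowest of the 13.

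Of 8 trefoil peptides and secreted epithelial proteins compared, 6 were 2-fold lower in siFOXA1 (beside 3.03% of all genes) and 0 higher (beside 2.57%), with a median of -1.20. Beside TFF1 these were the secretoglobins SCGB1D2 (0.658 FPKM in siFOXA1 and 6.17 in siFOXM1, 1.80 in siControl, -2.11) and SCGB2A1 (1.26 FPKM in siFOXA1 and 4.07 in siFOXM1, 0.473 in siControl, -1.17), TFF3 (3.95 FPKM in siFOXA1 and 13.3 in siFOXM1, 6.71 in siControl, -1.53), AGR2, a disulfide isomerase of secretory cells (2.22 FPKM in siFOXA1 and 6.55 in siFOXM1, 2.66 in siControl, -1.23), and SLPI, a secreted protease inhibitor (13.3 FPKM in siFOXA1 and 28.8 in siFOXM1, 3.41 in siControl, -1.06). They did not share a pattern across libraries: siFOXA1 alone stood off for SCGB1D2 and TFF3, siFOXM1 alone for SCGB2A1 and SLPI, and neither for AGR2. The mucins MUC1 and MUC13 of this list did not pass the filter on low values, so no mucin was compared.

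**Figure D3:**
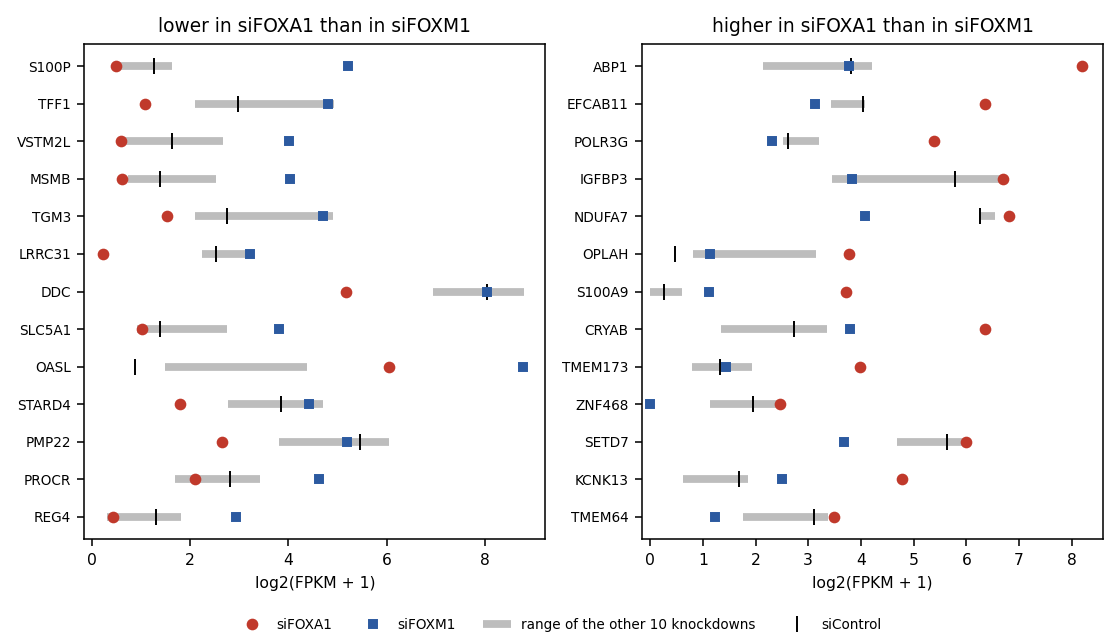
Levels as log2(FPKM + 1) of the genes with the largest differences, lower in siFOXA1 (left) and higher in siFOXA1 (right), in order of size. Red circles are siFOXA1, blue squares siFOXM1, grey bars the range of the other 10 knockdowns and black ticks siControl. For some genes, such as DDC, the red circle lies outside the grey bar, for others, such as NDUFA7 and SETD7, the blue square does, and for TFF1 the 2 libraries lie on opposite sides of siControl.

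Transcription factors of the luminal lineage differed in 3 of 16 genes, all lower in siFOXA1 (beside 3.03% of all genes), with a median of -0.26. SPDEF, an ETS factor of secretory epithelium, was at 5.92 FPKM in siFOXA1 and 36.0 in siFOXM1 (other knockdowns 22.6, 33.2 and 48.9; 31.9 in siControl; -2.42). MYB was at 1.64 FPKM in siFOXA1 and 8.0 in siFOXM1 (other knockdowns 2.98, 5.73 and 18.1; 5.55 in siControl; -1.77). In SPDEF and MYB, siFOXA1 was the lowest of the 13 libraries and alone stood off, and siFOXM1 lay within the range. The epithelial factors ELF3 (26.1 FPKM in siFOXA1 and 39.0 in siFOXM1, -0.56) and EHF (80.5 FPKM in siFOXA1 and 60.6 in siFOXM1, 0.40) differed less. E-cadherin, CDH1, was the member past 2-fold among 15 genes of luminal keratins, junctions and splicing regulators, at 87.3 FPKM in siFOXA1 and 203 in siFOXM1, the lowest and the highest of the 13 libraries, with 135 in siControl (-1.21). This 1 gene of 15 (6.67%) stands beside 3.03% of all genes lower in siFOXA1.

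Androgen-induced genes, measured here without added androgen, were lower in siFOXA1 for part of the list. Of 16 compared, 6 were 2-fold lower (beside 3.03% of all genes) and 1 was higher (beside 2.57%), with a median of -0.32. SLC45A3, the prostate transporter prostein, was at 1.55 FPKM in siFOXA1 and 9.08 in siFOXM1 (other knockdowns 4.75, 10.3 and 20.7; 6.44 in siControl; -1.98). ACPP, prostatic acid phosphatase, was at 28.9 FPKM in siFOXA1 and 77.0 in siFOXM1 (-1.38), FKBP5, a chaperone of steroid receptors, at 4.61 in siFOXA1 and 10.9 in siFOXM1 (-1.08), and CAMKK2, a calcium-dependent kinase, at 11.5 in siFOXA1 and 24.5 in siFOXM1 (-1.04). In siControl these were at 71.8, 16.8 and 18.6 FPKM. NDRG1 (24.0 FPKM in siFOXA1 and 49.1 in siFOXM1, -1.0) was at the threshold. The reverse was found for TPD52, at 132 FPKM in siFOXA1 and 30.2 in siFOXM1, with 61.7, 83.0 and 119.6 in the other 10 knockdowns and 97.2 in siControl (2.09). These were the highest and the lowest of the 13 libraries, and siFOXM1 alone stood off. TMPRSS2 (42.6 FPKM in siFOXA1 and 52.8 in siFOXM1, 19.4 in siControl, -0.30) and KLK4 (13.8 FPKM in siFOXA1 and 14 in siFOXM1, 5.98 in siControl, -0.01), picked after their values were seen, were alike in the 2 libraries and above siControl in both.

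Among 9 androgen-repressed genes and UGT2B enzymes, DDC, UGT2B11 (0.184 FPKM in siFOXA1 and 1.77 in siFOXM1, 2.33 in siControl, -1.23) and the chemokine receptor CXCR7 (29.7 FPKM in siFOXA1 and 64.5 in siFOXM1, 76.5 in siControl, -1.09) were 2-fold lower in siFOXA1. These 3 genes (33.3%) stand beside 3.03% of all genes, and the 1 higher gene (11.1%) beside 2.57%. CAMK2N1, an inhibitor of the kinase CaMKII, was at 98.4 FPKM in siFOXA1 and 32.9 in siFOXM1, with 3.46, 14.1 and 22.7 in the other 10 knockdowns and 6.59 in siControl (1.55), so both libraries were above all others and siFOXA1 the higher. UGT2B enzymes have near-identical copies, which makes their split of reads uncertain. Of 14 genes of the glucocorticoid receptor and its targets, TSC22D3, which encodes GILZ, was at 7.66 FPKM in siFOXA1 and 38.2 in siFOXM1 (other knockdowns 12.7, 26.6 and 77.4; 25.5 in siControl; -2.18), and MT2A, a metal-binding protein, at 117 in siFOXA1 and 409 in siFOXM1 (-1.80). TSC22D3 and MT2A were the 2 genes at least 2-fold lower in siFOXA1 (14.3%, beside 3.03% of all genes). The other 12 were within 2-fold, and the list median was 0.13.

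Among genes higher in siFOXA1, the first 3 stood above all other libraries. The entry ABP1, a symbol that RefSeq lists as an older name of both AOC1 and DBNL, was at 291 FPKM in siFOXA1 and 12.6 in siFOXM1, with 3.39, 5.96 and 17.6 in the other 10 knockdowns and 13.1 in siControl (4.42). DBNL has an entry of its own in the files, and AOC1 has none. EFCAB11, an EF-hand protein, was at 80.4 FPKM in siFOXA1 and 7.69 in siFOXM1 (other knockdowns 9.86, 12.2 and 15.8; 15.3 in siControl; 3.23), and POLR3G, a subunit of RNA polymerase III, at 40.8 in siFOXA1 and 4.0 in siFOXM1 (other knockdowns 4.75, 6.49 and 8.22; 5.15 in siControl; 3.06). For EFCAB11 and POLR3G siFOXM1 was at the same time the lowest of the 13.

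Calcium-binding and stress proteins were among the others. CRYAB, a small heat shock protein, was at 80.6 FPKM in siFOXA1 and 12.8 in siFOXM1, both above the other libraries (other knockdowns 1.53, 5.59 and 9.19; 5.66 in siControl; 2.56). S100A9, a subunit of calprotectin, was at 12.1 FPKM in siFOXA1 and 1.16 in siFOXM1 (other knockdowns 0, 0.185 and 0.525; 0.202 in siControl; 2.60). S100A9 passed the filter on low values only through siFOXA1 or siFOXM1. In both genes siFOXA1 was the highest and siFOXM1 the second highest of the 13 libraries. KCNK13, a potassium channel, had the same order at 26.4 FPKM in siFOXA1 and 4.67 in siFOXM1 (other knockdowns 0.535, 1.78 and 2.63; 2.20 in siControl; 2.27). OPLAH, the 5-oxoprolinase of glutathione turnover, was at 12.6 FPKM in siFOXA1 and 1.21 in siFOXM1 (other knockdowns 0.748, 1.90 and 7.91; 0.385 in siControl; 2.63).

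For 4 genes the difference lay on the siFOXM1 side. NDUFA7, a subunit of mitochondrial complex I, was at 110.5 FPKM in siFOXA1 and 15.9 in siFOXM1, with 74.4, 85.0 and 92.9 in the other 10 knockdowns and 76.1 in siControl (2.72). SETD7, a lysine methyltransferase, was at 63.1 FPKM in siFOXA1 and 11.8 in siFOXM1 (other knockdowns 24.8, 48.3 and 64.7; 48.4 in siControl; 2.32). TMEM64 was at 10.2 FPKM in siFOXA1 and 1.34 in siFOXM1 (other knockdowns 2.41, 6.02 and 9.40; 7.60 in siControl; 2.26), and ZNF468, a zinc finger protein, was at 4.53 FPKM in siFOXA1 and close to 0 (3.6e-05 FPKM) in siFOXM1 (other knockdowns 1.20, 2.53 and 4.80; 2.88 in siControl). In all 4, siFOXM1 was below the other 12 libraries.

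**Figure D4:**
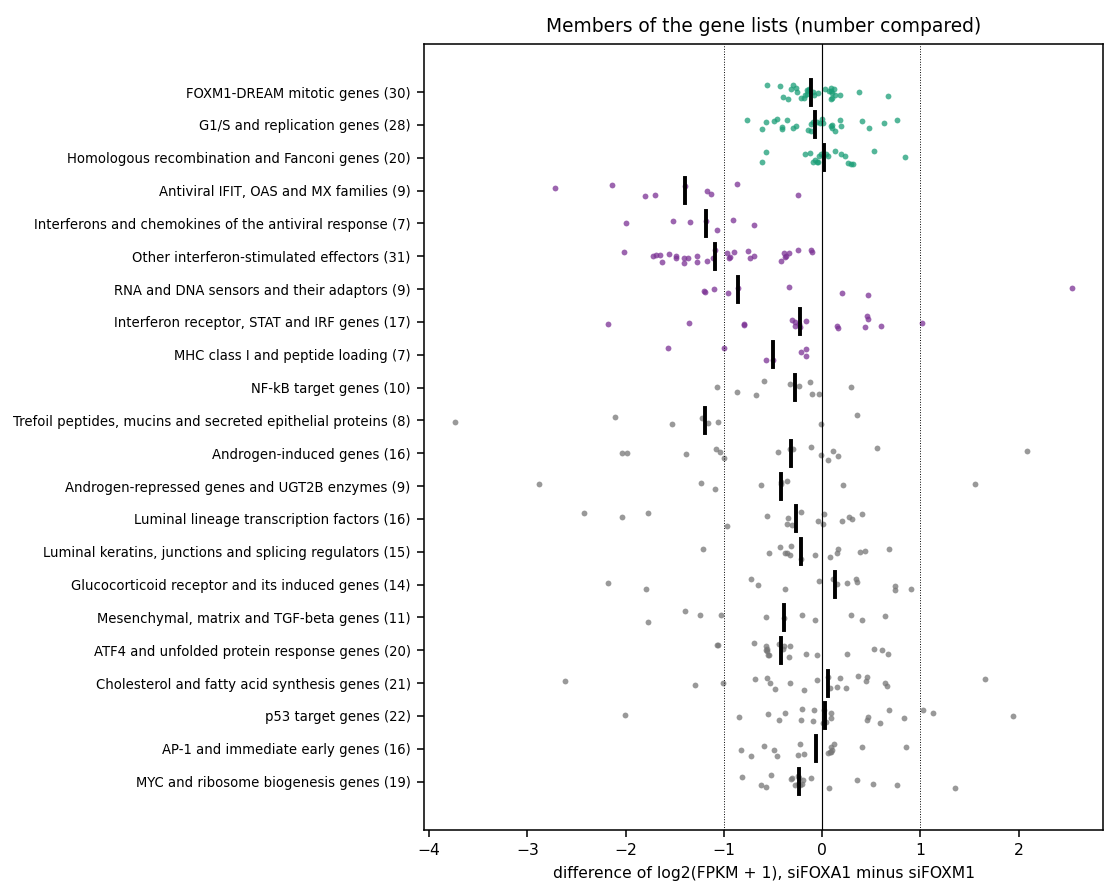
Difference of log2(FPKM + 1), siFOXA1 minus siFOXM1, for the members of 22 gene lists. Each point is a gene, the thick black tick the list median, dotted lines mark 2-fold, and the number compared is in brackets (green, cell division; purple, interferon; grey, other lists). The purple lists lie mostly left of 0, with TMEM173 at the far right, and the green lists are centred on 0.

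The remaining lists had medians between -0.42 and 0.13. Their counts stand beside 2.57% of all genes 2-fold higher in siFOXA1 and 3.03% lower. Of 22 p53 target genes, 3 were 2-fold higher in siFOXA1 (13.6%) and 1 was lower (4.55%, near the share of all genes), with a median of 0.03. RRM2B, a ribonucleotide reductase subunit, was at 43.1 FPKM in siFOXA1 and 10.5 in siFOXM1 (other knockdowns 18.6, 20.6 and 27.6; 20.3 in siControl; 1.94), the highest and the lowest of the 13 libraries. ZMAT3 (7.73 FPKM in siFOXA1 and 2.98 in siFOXM1, 1.13) and SESN1 (96.4 FPKM in siFOXA1 and 46.9 in siFOXM1, 1.02) were lowest in siFOXM1 too. The secreted cytokine GDF15 ran the other way, at 6.87 FPKM in siFOXA1 and 30.6 in siFOXM1, with 4.27, 11.9 and 40.1 in the other 10 knockdowns and 4.13 in siControl (-2.0).

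Of 21 genes of cholesterol and fatty acid synthesis, STARD4, the sterol sensor partner INSIG1 (48.4 FPKM in siFOXA1 and 120.1 in siFOXM1, 119.8 in siControl, -1.29) and ACLY, which supplies cytosolic acetyl-CoA (55.6 FPKM in siFOXA1 and 113 in siFOXM1, 122 in siControl, -1.01), were 2-fold lower in siFOXA1. SC5D, a late enzyme of cholesterol synthesis, was at 23.3 FPKM in siFOXA1 and 6.68 in siFOXM1 (other knockdowns 12.8, 16.7 and 21.1; 15.8 in siControl; 1.66), the highest and the lowest of the 13 libraries. The list median was 0.06.

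Of 11 mesenchymal and matrix genes, 4 were 2-fold lower in siFOXA1 (beside 3.03% of all genes, list median -0.39): tenascin C, TNC (2.18 FPKM in siFOXA1 and 9.88 in siFOXM1, 7.80 in siControl, -1.77), the fibronectin receptor chain ITGA5 (4.43 FPKM in siFOXA1 and 13.3 in siFOXM1, 5.39 in siControl, -1.39), fibronectin, FN1 (3.27 FPKM in siFOXA1 and 9.13 in siFOXM1, 5.24 in siControl, -1.25) and the collagen COL5A2 (5.53 FPKM in siFOXA1 and 12.4 in siFOXM1, 12.6 in siControl, -1.03). siFOXA1 was the lowest of the 13 libraries for all 4. Of 18 hypoxia and glycolysis genes, 3 were lower (median -0.23), among them LDHA, lactate dehydrogenase A, at 108 FPKM in siFOXA1 and 225 in siFOXM1 against 306 in siControl (-1.05), and CA12, a carbonic anhydrase, at 10.4 in siFOXA1 and 26.9 in siFOXM1 (-1.29). Of 20 genes of ATF4 and the unfolded protein response, XBP1 (79.9 FPKM in siFOXA1 and 169 in siFOXM1, 89.2 in siControl, -1.07) and DDIT4 (36.6 FPKM in siFOXA1 and 77.4 in siFOXM1, 58.9 in siControl, -1.06) were 2-fold lower, with a median of -0.42.

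In 16 immediate early genes and 16 genes of Notch, Wnt and Hippo signalling, 0 were 2-fold apart. Of 19 genes of MYC and ribosome biogenesis, 1 was, the growth regulator PA2G4, at 49.8 FPKM in siFOXA1 and 19.0 in siFOXM1 (other knockdowns 52.3, 66.4 and 79.5; 70.3 in siControl; 1.35), which was low in both libraries. Of 10 NF-kB target genes, 1 was 2-fold lower in siFOXA1, with a median of -0.28. Within the forkhead family, 15 genes were compared, and beside the targets FOXD1 was at 2.52 FPKM in siFOXA1 and 6.92 in siFOXM1 (5.14 in siControl, -1.17), FOXP1 at 1.44 in siFOXA1 and 3.84 in siFOXM1 (2.92 in siControl, -0.99) and FOXN3, a repressor, at 16.9 in siFOXA1 and 7.91 in siFOXM1 (7.54 in siControl, 1.0).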

How the data were processed

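The authors deposited 1 file per library with a log2 FPKM value for each of 22613 entries. TopHat, Cufflinks and hg19 are named, without versions, per the submitters' processing notes. RNA was column-purified and libraries were made with a TruSeq kit, per the labels' protocols. Values ended at the log2 of 0.1 and were taken as log2(FPKM + 0.1), although no label states this offset. Sorted values of the 13 libraries differed by at most 0.0562, so they share a common distribution, a step no label records. No source used here says whether strand was used, so reads of overlapping genes, such as FOXM1 and its neighbours, cannot be told apart.

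FPKM was recovered by subtracting 0.1 (values under 1e-09 set to 0) and expressed as log2(FPKM + 1), with Python 3.11.15, numpy 2.4.6 and pandas 2.3.3. With 1 library per group no test was possible. A 2-fold difference (1 on the log2 scale) is a description. The script was tested on simulated data. The members and lists were chosen with earlier results of these data known. Named genes are the targets, the 14 largest differences each way with a plain symbol, at least 2 FPKM in the higher library and no switching to under 0.01 FPKM in 3 or more libraries, and up to 6 members of each list with the largest differences. Any member named beyond this rule was picked with its value in view. Some genes that this rule names are not reported here. Alternatives were another pseudocount, other filters, small RNA entries kept, quantile normalization, centring, and leaving out switching entries. The reference annotation was of another build than hg19 and served for names, gene order and promoter sequence.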

Additional observations from a re-analysis of the deposited data

How the results depend on the processing

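With a pseudocount of 0.1 in place of 1, the genes at least 2-fold higher in siFOXA1 numbered 764 and those lower 905, and siFOXA1 alone stood off for 662 and siFOXM1 alone for 285. Under that setting FOXM1 passed 2-fold, at 1.69. With no filter on low values the median of the 31 further interferon-stimulated effectors was -0.96, under 2-fold, because members with low values joined the list. A filter on the mean of the other 11 libraries was added after the data were seen. The S100A9 value could not be had under it. The other 71 recomputed counts and medians, and 230 values of named genes, kept their direction and their side of 2-fold, or stayed within 1.5 times for counts, under all alternatives run. No paired analysis was possible because each group had 1 library. No library could be left out for the same reason. Depth is unknown, so no counting interval or detection floor is given, and differences of genes with low FPKM are the least certain.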

Other observations

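In some further gene families, part of the members differed. The families were picked after their values were seen, so their counts are descriptions. Of 8 metallothionein genes compared, which encode metal-binding proteins and have near-identical copies, 6 were at least 2-fold lower in siFOXA1, beside 3.03% of all genes. MT1G was at 60.4 FPKM in siFOXA1 and 185 in siFOXM1 (46.3, 88.0 and 147 as the lowest, median and highest of the other 10 knockdowns, 63.6 in siControl). siFOXM1 was the highest of the 13 libraries for 8 of the 8, beside 10.4% of all genes, while siFOXA1 lay within the range of the others. Of 5 apolipoprotein L genes, 3 were 2-fold lower in siFOXA1 (beside 3.03% of all genes) and 0 higher (beside 2.57%). APOL1 was at 5.13 FPKM in siFOXA1 and 24.7 in siFOXM1, against 2.49 in siControl, while APOL4 was at 7.41 in siFOXA1 and 4.07 in siFOXM1.

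Most homeobox cluster genes lay within 2-fold. Of 8 HOXA genes compared, 2 were 2-fold higher in siFOXA1, and so were 2 of 8 HOXC genes, beside 2.57% of all genes, while 2 of 3 HOXB genes were lower, beside 3.03%. HOXA11 was at 14.4 FPKM in siFOXA1 and 2.38 in siFOXM1 (2.93 in siControl), HOXA13 at 26.3 in siFOXA1 and 6.79 in siFOXM1 (10.00 in siControl), and their antisense entry HOXA11-AS at 174 in siFOXA1 and 15.8 in siFOXM1 (20.5 in siControl). Without known strand, reads of HOXA11 and HOXA11-AS cannot be told apart. HOXC11, HOXC12 and the noncoding HOTAIR between them were higher in siFOXA1 as well (1.61, 1.30 and 1.56), and HOXB7 and HOXB9 were lower (-1.15 and -1.37). IRX3 (59.3 FPKM in siFOXA1 and 14.8 in siFOXM1) and IRX5 (14.1 FPKM in siFOXA1 and 4.95 in siFOXM1) were higher in siFOXA1, as were ID1 (112 FPKM in siFOXA1 and 26.3 in siFOXM1) and ID3 (31.0 FPKM in siFOXA1 and 13.6 in siFOXM1), inhibitors of helix-loop-helix factors. In the beta-thymosins, which bind actin monomers, TMSB10 was at 24.6 FPKM in siFOXA1 and 134 in siFOXM1, and TMSB4X at 3965 in siFOXA1 and 947 in siFOXM1.

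Genes past 2-fold in 1 direction lay beside each other in places. In the order of RefSeq genes, 71 of 383 genes lower in siFOXA1 (18.5%) had a neighbour that was also lower, beside 5.68% of all 12946 genes placed, and 40 of 311 higher genes (12.9%) had a higher neighbour, beside 4.66%. With overlapping neighbours left out the shares were 16.4% and 10.6%. The longest stretches of lower genes held 5 genes each, IFIT2, IFIT3, IFIT1B, IFIT1 and IFIT5 on chromosome 10 and metallothionein entries on chromosome 16. IFIT1B was at 1.83 FPKM in siFOXA1 and 5.52 in siFOXM1, against at most 0.534 in the other 10 knockdowns. It passed the filter on low values only through siFOXA1 or siFOXM1, as did FAM65B in another stretch. The shares of lower genes with a lower neighbour include such genes and are descriptions. The longest stretch of higher genes held 4, GFOD2, RANBP10, TSNAXIP1 and CENPT on chromosome 16 (1.18, 1.22, 1.18 and 1.03), and EFCAB11, TDP1 and KCNK13 were adjacent on chromosome 14 (3.23, 1.84 and 2.27).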
